A study of Mus musculus with 12 samples.

Results

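The comparison set mice that had both stimuli, a high-fat diet (HFD) and cold, against mice that had neither, and asked how far the interscapular brown adipose tissue (iBAT) transcriptome moved in all and where diet and cold added up or cancelled. Its members were 6 of the 12 iBAT libraries of the series, chosen by the diet and temperature in the column names of the count table, with 3 libraries on each side and all genes. All 12 libraries came from wild type C57BL/6N mice aged 20 weeks, which carried no engineered allele. The baseline group (NCD_RT) stayed on control diet and was kept at room temperature, 22 °C in the column names. The group with both stimuli (HFD_cold) ate HFD for 12 weeks from the age of 8 weeks and was then kept at 4 °C for 24 h. The remaining 6 libraries, 3 of HFD at room temperature (HFD_RT) and 3 of control diet in the cold (NCD_cold), were used for the shared estimate of the spread and for dividing the total change between diet and cold. The design text of the series expands iBAT as inguinal, the study's methods as interscapular.

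Brown adipocytes burn fatty acids and glucose in mitochondria that are uncoupled by UCP1, and they do so when noradrenaline from sympathetic nerves raises cAMP in the cold. They also make fatty acids from glucose, and in mice this pathway is highly active in the tissue: ATP citrate lyase (Acly) yields acetyl-CoA, acetyl-CoA carboxylase (Acaca) malonyl-CoA, fatty acid synthase (Fasn) palmitate, and stearoyl-CoA desaturase (Scd1) oleate. Dietary fat is known to lower the transcription of this pathway, whereas cold is known to raise both fuel uptake and thermogenic genes.

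Total RNA was sequenced, and values are given as CPM (counts scaled to a common library size) scaled by TMM factors. A log2 fold change is HFD_cold against NCD_RT in a fit of all 12 libraries, ± is its standard error, and the adjusted p comes from edgeR's quasi-likelihood test over the 16737 genes that passed the count filter, of 61210 in the table. A gene was called if its adjusted p was below 0.05 and it had moved by more than 0.5 on the log2 scale in either direction. The libraries held 15136861 to 46740702 counts, and replicates of the 2 groups correlated at Spearman 0.968 to 0.985 across genes. Ucp1 lay at 3789 to 18810 CPM in the 12 libraries, so the tissue carried its defining marker. Genes of skeletal muscle, which borders the depot, summed to 6645 to 43888 CPM in NCD_RT and 1590 to 13678 CPM in HFD_cold, highest in NCD_RT replicate 2 and HFD_cold replicate 3, and their part in the results was not tested. Scd1 alone took 10.2 to 11.7% of the counts of an NCD_RT library and 1.93 to 2.24% in HFD_cold. TMM scaling set the median log2 fold change of all genes to 0.02, whereas scaling by library totals alone set it to 0.31, and the latter made 81.7% of the called genes higher in place of 52.2%. Falls of small size therefore depend on the scaling, and the lists they touch are given under both.

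Both stimuli together changed 3049 of the 16737 genes tested (18.2%). Of these, 1591 were higher (9.51% of the genes tested) and 1458 lower (8.71%). A fold change beyond 2 was reached by 796 of the higher and 760 of the lower genes, and one beyond 8 by 124 and 76. The 3 libraries of one group did not overlap with those of the other in 3027 of the 3049 called genes, against 6742 of all genes tested (40.3%). Called were 2640 of 13196 coding genes (20%) and 399 of 3433 lncRNA and other noncoding genes (11.6%). In the batch of replicates 1 and 2 alone, 2416 genes were called. Without HFD_cold replicate 1 the count was 2189, the lowest with any library left out.

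Gene lists differed in the share and direction of their called members, as the plot of gene lists shows. The called members of fatty acid synthesis, cholesterol synthesis, branched-chain amino acid catabolism and collagens were mostly lower, those of the stress response, thermogenic, triglyceride synthesis and endothelial lists mostly higher, and the lists of the proteasome (0 higher and 1 lower of 33), erythroid genes (0 of 8 called) and interferon response (1 higher and 1 lower of 18) held few called genes.

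**Figure D1:**
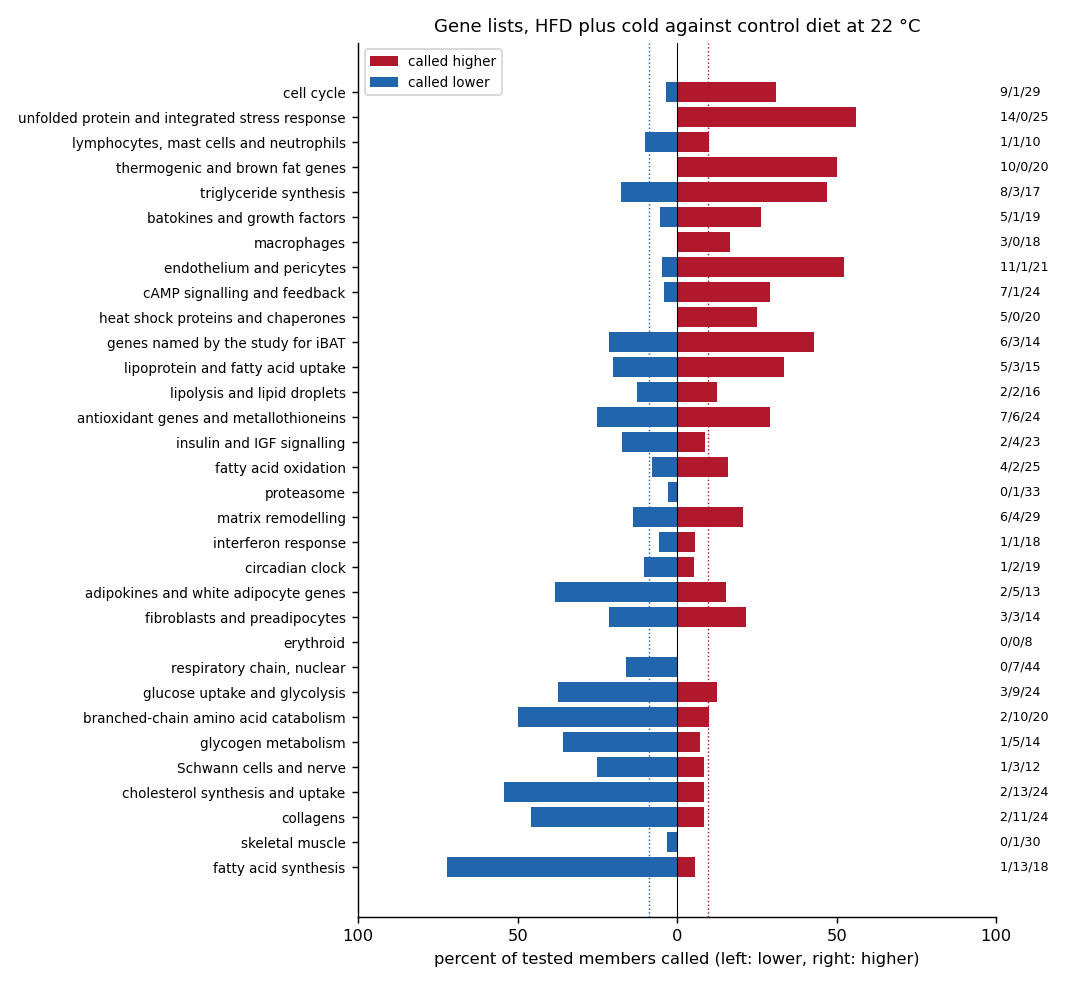
Percent of the tested members of 32 gene lists called higher (red, to the right) or lower (blue, to the left) in HFD_cold against NCD_RT, ordered by the median log2 fold change of the list. Dotted lines mark the 9.51% and 8.71% of all tested genes, and the numbers at the right give members called higher, called lower and tested. Fatty acid synthesis stands at the lower end with 13 of 18 members lower, and the stress response list has 14 of 25 members higher and 0 lower.

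Fatty acid synthesis genes fell. Of 18 genes tested, 13 were lower and 1 was higher, and the median log2 fold change was -1.85 against 0.02 for all genes. Acly stood at 10377, 7371 and 8845 CPM in the 3 NCD_RT libraries and at 234, 474 and 298 CPM in the 3 HFD_cold libraries. This was a 26.4-fold lower mean (log2 fold change -4.72 ± 0.38, adjusted p = 3.31e-05), with no overlap between the groups. Acaca, the enzyme of the committed step, fell from 12657, 9518 and 10880 CPM to 641, 1047 and 648 CPM (log2 fold change -3.82 ± 0.28, adjusted p = 1.85e-05). Fasn, which builds palmitate, fell from 58376, 54549 and 61530 CPM to 3002, 6152 and 2595 CPM (log2 fold change -3.89 ± 0.33, adjusted p = 4.03e-05). The groups did not overlap for any of these 3 genes, and HFD_cold replicate 2 was the highest of its group for each.

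The fall ran through the pathway from its substrates to its end products. Slc25a1, the carrier that exports citrate from mitochondria, changed by -3.13 ± 0.23 (adjusted p = 1.85e-05) and Me1, the malic enzyme that supplies NADPH, by -2.35 ± 0.19 (adjusted p = 3.66e-05). Scd1, the desaturase, went from 130397, 109364 and 115288 CPM to 17235, 20757 and 16792 CPM (log2 fold change -2.70 ± 0.28, adjusted p = 0.000117). Mlxipl, which encodes the carbohydrate-responsive factor ChREBP, was lower (-1.18 ± 0.16), whereas Srebf1, which encodes the lipogenic factor SREBP1, did not pass the test (-0.82 ± 0.37, adjusted p = 0.137). Acsl1, the only member called higher (0.59 ± 0.12), activates fatty acids of any origin for oxidation or esterification. Summed over the 18 genes, the list held 198044 to 230223 CPM in NCD_RT and 29215 to 39209 CPM in HFD_cold. With scaling by library totals 12 of the 18 were lower, and with each library left out 11 to 14.

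Neither stimulus alone brought Acly or Fasn so low. Acly averaged 8864 ± 1503 CPM (SD, n = 3) in NCD_RT, 3784 ± 1445 CPM with HFD alone, 6716 ± 1944 CPM with cold alone and 335 ± 124 CPM with both. Fasn averaged 58152, 28927, 42474 and 3916 CPM in the same order. For the share of the change beyond the sum of both separate log2 effects, the interaction term, Acly gave -3.10 ± 0.47, Fasn -2.43 ± 0.42 and Acaca -2.11 ± 0.35. These terms did not pass edgeR's test (adjusted p = 0.0979, 0.166 and 0.16), and they passed the Wald test of DESeq2 (adjusted p = 6.69e-09, 6.89e-07 and 1.21e-06). Of the 18 genes, 13 had a negative and 5 a positive interaction term, while Scd1, with -0.11 ± 0.37, lay near the plain sum.

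**Figure D2:**
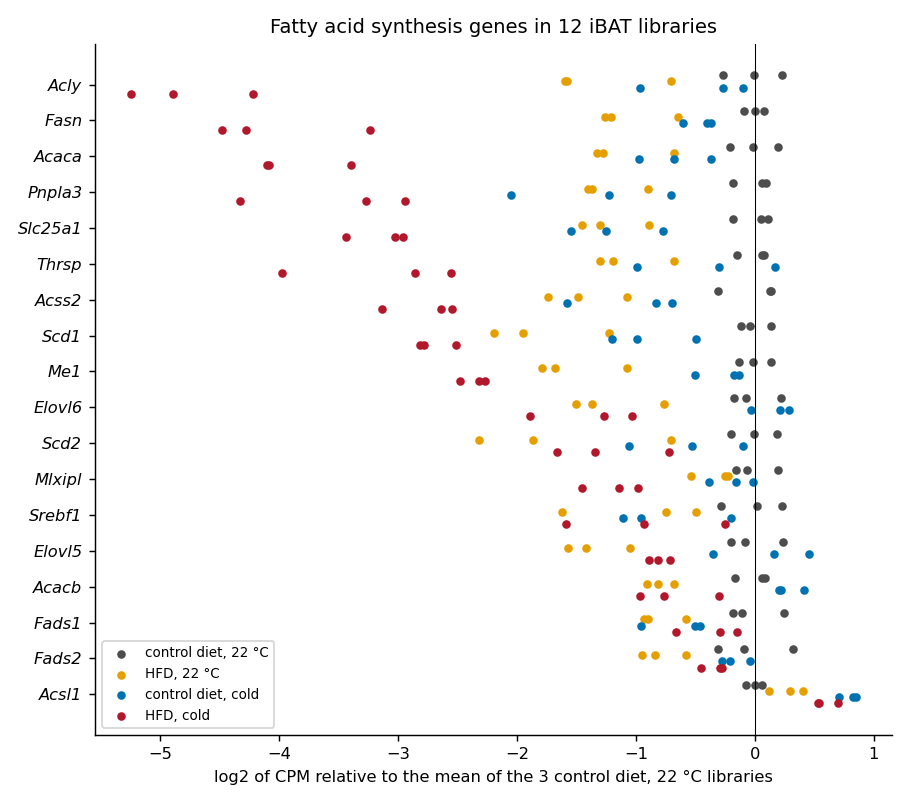
CPM of the 18 fatty acid synthesis genes in each of the 12 libraries, as log2 relative to the mean of the 3 NCD_RT libraries, ordered by the total change. Each point is 1 library. The HFD_cold points (red) of Acly, Fasn and Acaca lie apart from the 9 other libraries, while those of Elovl5 and Fads2 lie close to the other groups.

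The fructose transporter gene Slc2a5, at chr4:150119283-150144169 on GRCm38, was the most strongly lowered coding gene among those named here by the size of their fall. It read 84.5, 60.0 and 71.9 CPM in NCD_RT, 38.7, 23.5 and 18.5 CPM with HFD alone, 36.4, 13.9 and 37.8 CPM with cold alone and 0.585, 0.748 and 0.629 CPM with both (log2 fold change -6.78 ± 0.47, adjusted p = 1.26e-05). The 3 HFD_cold libraries were below each of the 9 others. Its average cold effect was -3.32 ± 0.28 and its average HFD effect -3.46 ± 0.28, and its interaction term was -4.06 ± 0.55 (adjusted p = 0.0646 by edgeR and 1.37e-10 by DESeq2).

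Promoters of 4 lipid genes whose cold and HFD effects ran together or apart, and of 1 stress gene, are shown as examples. All of them hold a CCAAT box, a site bound by the factor NF-Y in many lipid genes. The examples were not picked by a rule, so its presence in each of them is no result. Each is the 250 bases before the RefSeq transcription start on GRCm38.p6, 5′ to 3′ on the strand of the gene, with CCAAT and its reverse complement ATTGG in capitals. Fasn (chr11:120824548-120824797, - strand) and Slc25a1 (chr16:17928220-17928469, - strand) fell under both stimuli, Idi1 (chr13:8885356-8885605, + strand) and Msmo1 (chr8:64733579-64733828, - strand) belong to cholesterol synthesis, and Mthfd2 (chr6:83317605-83317854, - strand) rose.

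Fasn: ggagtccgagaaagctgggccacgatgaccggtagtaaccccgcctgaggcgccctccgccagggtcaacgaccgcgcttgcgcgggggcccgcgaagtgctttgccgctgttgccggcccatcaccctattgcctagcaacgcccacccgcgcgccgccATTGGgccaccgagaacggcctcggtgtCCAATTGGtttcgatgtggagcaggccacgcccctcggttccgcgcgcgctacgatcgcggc

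Slc25a1: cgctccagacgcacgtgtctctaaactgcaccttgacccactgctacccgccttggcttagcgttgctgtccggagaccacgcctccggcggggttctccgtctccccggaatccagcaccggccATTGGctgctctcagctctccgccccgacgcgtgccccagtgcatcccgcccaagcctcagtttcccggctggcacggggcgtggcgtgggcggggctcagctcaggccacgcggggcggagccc

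Idi1: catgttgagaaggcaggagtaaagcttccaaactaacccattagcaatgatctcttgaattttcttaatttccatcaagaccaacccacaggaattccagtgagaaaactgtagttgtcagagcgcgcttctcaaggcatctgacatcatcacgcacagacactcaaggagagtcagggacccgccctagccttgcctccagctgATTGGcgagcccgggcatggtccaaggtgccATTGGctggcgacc

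Msmo1: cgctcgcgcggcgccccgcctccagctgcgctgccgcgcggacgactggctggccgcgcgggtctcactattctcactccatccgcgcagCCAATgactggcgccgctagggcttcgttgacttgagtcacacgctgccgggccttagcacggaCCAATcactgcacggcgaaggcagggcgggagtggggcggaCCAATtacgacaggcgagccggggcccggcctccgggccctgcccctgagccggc

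Mthfd2: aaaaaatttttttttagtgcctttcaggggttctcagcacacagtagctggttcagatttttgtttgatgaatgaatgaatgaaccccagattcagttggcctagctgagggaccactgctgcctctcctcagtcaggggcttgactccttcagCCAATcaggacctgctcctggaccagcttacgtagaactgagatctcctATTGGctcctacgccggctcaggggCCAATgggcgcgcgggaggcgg

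Fasn held 3 matches in this stretch, of which a CCAAT and an ATTGG overlap, Slc25a1 1, Idi1 2, Msmo1 3 and Mthfd2 3. In the RefSeq table, whose windows reach 50 bases past the start and are 300 bases long, CCAAT was found on either strand in 37.4% of 32851 promoters of 27025 genes. It was found in 65% of 20 promoters of the fatty acid list (15 of its 18 genes matched), 80% of 20 promoters of the cholesterol list (17 genes matched), 66.7% of 27 promoters of the stress response list (24 genes matched) and 38.5% of 13 promoters of the thermogenic list (12 genes matched). Over all called genes the share was 35.8% for the higher and 40.5% for the lower ones, and 37.1% for tested genes that were not called. The other motifs searched were CACGTG (the E-box, in 7.15% of all promoters, 15% of the fatty acid and 20% of the cholesterol list), TCACCCCA (a sterol regulatory core, in 1.56%, 5% and 10%) and TGACG (the core of a cAMP response element, in 20.8%, 15% and 40%, against 29.9% for tested genes that were not called). The full element TGACGTCA holds TGACG on both strands, so these 2 overlap, and it was found in 1.79% of all promoters, 3.01% of those of tested genes that were not called, 10% of the fatty acid list (2 of 20 promoters), 7.69% of the thermogenic list (1 of 13) and 0% of the cholesterol and stress response lists. GAANNTTC, the heat shock element, was in 7.86% of all promoters and 3.7% of the stress response list. These are letter matches and not shown to be bound sites.

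Cholesterol synthesis and uptake held 6 genes of 24 that cold and diet moved in opposite directions, against 75 of all 16737 genes tested. This was more than any other of the lists (0 or 1 each), which held 8 to 44 tested members. The 24 genes tested had a median average HFD effect of -1.01, with 18 called lower and 0 higher (7.8% of all genes tested were called for the HFD effect). Their median average cold effect was 0.13, with 7 called higher and 1 lower (12.7% of all genes tested were called for the cold effect). In the total, 13 genes were lower and 2 higher, and the median log2 fold change was -0.61, or -0.32 with 10 lower when libraries were scaled by their totals.

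The 6 members called in opposite directions for both effects were Sqle, Cyp51, Msmo1, Idi1, Fdps and Hsd17b7, all enzymes of the route from mevalonate to cholesterol. Sqle, squalene epoxidase, read 44.3, 45.7 and 44.6 CPM in NCD_RT, 15.4, 9.72 and 8.33 CPM with HFD alone, 71.4, 55.8 and 71.6 CPM with cold alone and 37.1, 31.4 and 27.4 CPM with both. Its average cold effect of 1.05 ± 0.14 and HFD effect of -1.54 ± 0.15 left a total of -0.49 ± 0.20, which did not pass (adjusted p = 0.106). HFD_cold stayed below NCD_RT in each library, between the low values of HFD alone and the high values of cold alone. Cyp51, lanosterol demethylase, came out at -0.23 ± 0.19 and Msmo1, methylsterol monooxygenase, at -0.21 ± 0.18 in the total, both not called, whereas Idi1 (-0.73 ± 0.19) and Fdps (-0.54 ± 0.16) remained lower and Hsd17b7 (0.79 ± 0.16) higher.

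Other members went down without a called cold effect or fell under both. Fdft1, squalene synthase, fell from 125, 113 and 106 CPM to 21.8, 19.3 and 21.1 CPM (log2 fold change -2.47 ± 0.23, adjusted p = 6.49e-05), with a cold effect of -0.86 ± 0.15 and an HFD effect of -1.61 ± 0.16. Insig1, which holds the sterol sensor in the endoplasmic reticulum, fell from 956, 1082 and 1059 CPM to 258, 369 and 258 CPM (log2 fold change -1.81 ± 0.20, adjusted p = 0.000151). Hmgcs1, which makes HMG-CoA, was higher (0.71 ± 0.20).

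**Figure D3:**
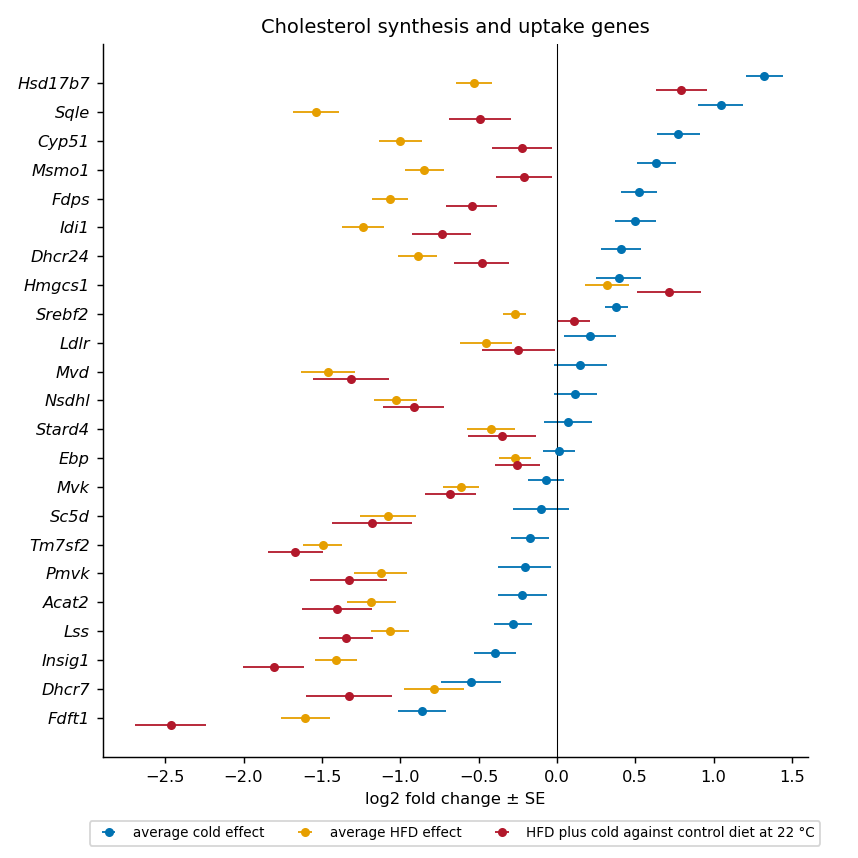
Average cold effect (blue), average HFD effect (orange) and total HFD_cold against NCD_RT (red) of genes of the cholesterol list, as log2 fold change with standard error, ordered by the cold effect. The total is the sum of the other 2. For the genes in the upper rows, such as Sqle and Cyp51, blue lies right of 0 and orange left of it, and red lies between them.

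Genes of carbohydrate use were more often lower than higher. For the average HFD effect, 11 of 24 genes of glucose uptake and glycolysis were called lower and 1 higher, and for cold 2 lower and 5 higher. In the total, 9 were lower and 3 higher (median -0.41), and 7 and 7 when libraries were scaled by their totals. Pdk1, a kinase that inhibits pyruvate dehydrogenase, fell from 306, 263 and 262 CPM to 54.8, 83.8 and 66.1 CPM (log2 fold change -2.02 ± 0.18, adjusted p = 5.98e-05), and the pyruvate dehydrogenase subunits Pdhb (-1.26 ± 0.18) and Pdha1 (-1.06 ± 0.16) fell as well. Hk1, the housekeeping hexokinase, rose from 65.1, 53.5 and 54.2 CPM to 153, 118 and 143 CPM (log2 fold change 1.26 ± 0.13, adjusted p = 0.000105), while Hk2, the insulin-responsive one, fell from 741, 1049 and 1036 CPM to 398, 332 and 384 CPM (-1.34 ± 0.21). Slc2a4, the insulin-responsive glucose transporter GLUT4, was lower (-0.60 ± 0.15) and Slc2a1, the constitutive GLUT1, higher (1.15 ± 0.20).

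Glycogen genes counted 5 lower and 1 higher of 14 (median -0.58 against 0.02 for all genes), with 3 lower when libraries were scaled by their totals. Ppp1r3b, which targets phosphatase to glycogen, fell (log2 fold change -1.89 ± 0.36, adjusted p = 0.00368), and so did the phosphorylases Pygl (-1.65 ± 0.30) and Pygb (2-fold lower on the means). Ugp2, which makes UDP-glucose, rose from 296, 359 and 337 CPM to 726, 549.8 and 701 CPM (1.00 ± 0.19).

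Uptake and esterification of fatty acids held more higher than lower genes. Lpl, the lipase that frees fatty acids from circulating lipoproteins, rose from 1866, 2560 and 2311 CPM to 7776, 8134 and 7781 CPM (log2 fold change 1.81 ± 0.15, adjusted p = 3.66e-05), with an average cold effect of 1.61 ± 0.10 and an average HFD effect of 0.20 ± 0.10. Fabp3, a fatty acid carrier protein of oxidative tissues, rose from 347, 341 and 340.0 CPM to 1779, 2092 and 2294 CPM (log2 fold change 2.58 ± 0.18, adjusted p = 1.52e-05), and here cold (1.43 ± 0.12) and diet (1.15 ± 0.12) were both called. Cd36, the fatty acid translocase, was 1.69-fold higher (0.76 ± 0.12), and Slc27a1, a fatty acid transport protein, lower (-1.30 ± 0.12). The list of lipoprotein and fatty acid uptake counted 5 higher and 3 lower of 15, and triglyceride synthesis 8 higher and 3 lower of 17 (median 0.61). The summed uptake list held 12163 to 13119 CPM in NCD_RT and 20625 to 22319 CPM in HFD_cold. The summed triglyceride list overlapped between the groups, with 18721 to 21197 CPM in NCD_RT and 14910 to 21324 CPM in HFD_cold.

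Gk, glycerol kinase, which lets brown adipocytes reuse glycerol, rose from 127, 203 and 176 CPM to 1245, 1493 and 1358 CPM (log2 fold change 3.02 ± 0.18, adjusted p = 1.07e-05). Most of this went with cold (2.31 ± 0.12), and HFD added 0.71 ± 0.12. The acyltransferases Gpam (1.27 ± 0.17) and Gpat4 (1.01 ± 0.12) rose, and Mogat1, monoacylglycerol acyltransferase, fell (-1.86 ± 0.29). Of 16 lipolysis and droplet genes, 2 were higher and 2 lower: the lipase coactivator Abhd5 (0.70 ± 0.17) and the droplet protein Plin5 (0.54 ± 0.13) were higher, and the lipases Pnpla2 (-0.68 ± 0.16) and Lipe (-0.58 ± 0.16) lower. The call of Plin5 was lost without NCD_RT replicate 1 or 2 or HFD_cold replicate 1 or 3, and that of Lipe without NCD_RT replicate 1 or 3 or HFD_cold replicate 1 or 3. Both lipases lost their call with scaling by library totals.

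Fatty acid oxidation genes were 4 higher and 2 lower of 25, while 9.51% of all genes tested were higher and 8.71% lower. Their median log2 fold change was 0.02, the same as for all genes. The count was 7 higher without NCD_RT replicate 1, 0 to 4 lower with each library left out, and 9 higher and 0 lower when scaled by library totals. The genes named below are all on the higher side. Cpt1a, the liver form of the enzyme that admits fatty acids to mitochondria, rose from 22.6, 29.5 and 26.8 CPM to 96.3, 92.6 and 124 CPM (log2 fold change 1.99 ± 0.17, adjusted p = 4.03e-05), in similar parts with cold (0.94 ± 0.12) and diet (1.05 ± 0.12). Cpt1b, the form that prevails in brown fat, rose less (0.67 ± 0.13) from a level of 1125 CPM. Acot2, a mitochondrial acyl-CoA thioesterase, rose (2.14 ± 0.22), as did the peroxisomal Ehhadh (2.23 ± 0.47), whose HFD_cold values of 675, 198 and 229 CPM were led by replicate 1.

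Of 20 thermogenic and brown fat genes, 8 were called higher for the average cold effect and 0 lower, and for HFD 1 was higher and 1 lower. In the total, 10 were higher and 0 lower (median 0.68), and 8 to 10 with each library left out. Ucp1 rose from 4804, 3789 and 4016 CPM to 11625, 15194 and 13150 CPM, 3.17-fold on the means (log2 fold change 1.66 ± 0.17, adjusted p = 0.000119). Cold alone had brought it to 18810, 15320 and 14942 CPM and HFD alone to 7966, 7105 and 5994 CPM, and the interaction term was -1.04 ± 0.24 (adjusted p = 0.475 by edgeR and 0.00393 by DESeq2). Dio2, which activates thyroid hormone, rose from 74.4, 52.7 and 80.4 CPM to 666, 648 and 592 CPM (log2 fold change 3.20 ± 0.29, adjusted p = 5.98e-05).

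Adcy3, an adenylyl cyclase, went from 156, 179 and 175 CPM to 889.8, 1223 and 1320 CPM (log2 fold change 2.75 ± 0.19, adjusted p = 1.26e-05), with an average cold effect of 2.73 ± 0.13 and an average HFD effect of 0.02 ± 0.12. Elovl3, an elongase of very long fatty acids, was the thermogenic gene whose effects opposed each other, with 2.72 ± 0.18 for cold and -0.78 ± 0.17 for HFD, and it ended at 1.94 ± 0.25. The brown fat genes Cidea (0.18 ± 0.15) and Prdm16 (0.24 ± 0.35) and the adipocyte factor Pparg (-0.05 ± 0.13) were not called.

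Of 24 genes of cAMP signalling and its feedback, 7 were higher and 1 lower. Nr4a3, an early response nuclear receptor, rose from 1.18, 0.756 and 0.71 CPM to 7.79, 10.8 and 4.2 CPM (log2 fold change 3.12 ± 0.57, adjusted p = 0.00308), Adcy4 rose (1.14 ± 0.15), and so did the phosphodiesterase Pde10a (0.83 ± 0.16). Adcy10, the bicarbonate-sensitive soluble cyclase, fell from 31.7, 37.6 and 34.5 CPM to 5.76, 11.7 and 8.44 CPM (log2 fold change -2.00 ± 0.28, adjusted p = 0.000623), although cold alone had it at 69.4, 46.4 and 55 CPM.

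Branched-chain amino acid catabolism counted 10 lower and 2 higher of 20 (median -0.54), and 4 lower and 3 higher with scaling by library totals. Ivd, isovaleryl-CoA dehydrogenase, fell from 276, 256 and 245 CPM to 98.4, 163 and 127 CPM, 2-fold on the means (adjusted p = 0.00132 by edgeR), Aldh6a1 (-0.87 ± 0.16) and Acadsb (-0.66 ± 0.11, not called with scaling by library totals) fell, and Dbt, a subunit of the branched-chain dehydrogenase complex, rose (0.81 ± 0.14). Of 44 nuclear genes of the respiratory chain, 7 were lower and 0 higher (median -0.35), among them Cox7b (-0.62 ± 0.14) and Ndufb8 (-0.61 ± 0.14). This count was 1 without NCD_RT replicate 1 or without HFD_cold replicate 1, 2 without HFD_cold replicate 3, 17 without HFD_cold replicate 2, 0 within the batch that holds replicates 1 and 2, and 0 with scaling by library totals. The call of Ndufb8 was lost without NCD_RT replicate 1 or HFD_cold replicate 1.

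Of 25 genes of the unfolded protein and integrated stress responses, 14 were higher and 0 lower (median 0.83), and 19 of the 25 had their highest HFD_cold value in replicate 1. The count was 7 without HFD_cold replicate 1, 9 without NCD_RT replicate 2 and 8 in the batch of replicates 1 and 2 alone. Mthfd2, a mitochondrial enzyme of one-carbon metabolism, read 5.16, 3.43 and 2.6 CPM in NCD_RT, 2.19, 3.45 and 2.32 CPM with HFD alone, 9.75, 5.53 and 6.82 CPM with cold alone and 63.7, 11.8 and 31 CPM with both (log2 fold change 3.27 ± 0.53, adjusted p = 0.00158). Each HFD_cold library was above the 9 others, with a spread of several fold between them.

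Gdf15, a stress hormone that acts on the hindbrain, read 0.311, 0 and 0.22 CPM in NCD_RT and 55.4, 3.39 and 7.81 CPM in HFD_cold (log2 fold change 6.87 ± 1.34, adjusted p = 0.00438), and HFD alone gave 9.53, 1.62 and 1.33 CPM. Fgf21, a hormone induced by the same pathway, stood at 1.06, 1.86 and 1.79 CPM and 35.2, 2.03 and 2.75 CPM, with 1 HFD_cold library far above the other two (log2 fold change 3.06 ± 0.91, adjusted p = 0.0328). Psat1, of serine synthesis, was at 4.48, 5.58 and 6.69 CPM and 63.7, 7.57 and 35.2 CPM (2.66 ± 0.55), and the luminal proteins Sdf2l1 (1.96 ± 0.31), Hspa5 (0.72 ± 0.14) and Calr (0.75 ± 0.14) rose without a lead of replicate 1. Xbp1 (-0.25 ± 0.17), Ddit3 (0.37 ± 0.25) and Atf4 (0.83 ± 0.34) were not called.

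Of 20 heat shock proteins and chaperones, 5 were higher and 0 lower, with 3 higher without NCD_RT replicate 1. Hspa4 rose from 197, 199.6 and 211 CPM to 347, 347 and 355 CPM (log2 fold change 0.79 ± 0.09, adjusted p = 0.000174), and Hsp90aa1 by 1.23 ± 0.27. Antioxidant genes and metallothioneins were split, with 7 higher and 6 lower of 24 (9 and 4 with scaling by library totals). Hmox1, heme oxygenase, rose from 7.15, 6.04 and 8.11 CPM to 88.8, 35.8 and 41.3 CPM (log2 fold change 2.95 ± 0.40, adjusted p = 0.000569), with called effects of both cold (1.59 ± 0.27) and diet (1.36 ± 0.27). Prdx6 (1.61 ± 0.17) and Srxn1 (1.23 ± 0.19) rose, and Gstm2, a glutathione transferase, fell (-1.07 ± 0.10).

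Among 18 macrophage genes Gpnmb, Lgals3 and Cd68 were called, all higher (median of the list 0.53). The count was 2 without NCD_RT replicate 3 or HFD_cold replicate 1 or 3, 5 without HFD_cold replicate 2 and 5 with scaling by library totals. Gpnmb, a lysosomal glycoprotein of lipid-laden macrophages, at chr6:49036546-49070929 on GRCm38, read 2.74, 4.07 and 3.33 CPM in NCD_RT, 3.67, 5.49 and 6.75 CPM with HFD alone, 2.64, 4.88 and 2.44 CPM with cold alone and 173, 23.2 and 79.1 CPM with both (log2 fold change 4.76 ± 0.63, adjusted p = 0.000482). Lgals3, galectin-3, read 10.5, 8.14 and 8.45 CPM, 11.8, 9.36 and 6.75 CPM, 7.45, 6 and 6.08 CPM and 64.2, 18 and 77 CPM in the same order (log2 fold change 2.56 ± 0.43, adjusted p = 0.00184). For both genes the 9 libraries outside HFD_cold lay close together and the HFD_cold libraries above them, replicate 2 lowest. The interaction terms were 4.14 ± 0.83 for Gpnmb and 2.99 ± 0.59 for Lgals3 (adjusted p = 0.298 and 0.298 by edgeR, 0.00199 and 9.14e-05 by DESeq2).

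Cd68 rose by 1.82 ± 0.45, a call lost without NCD_RT replicate 3, HFD_cold replicate 1 or HFD_cold replicate 3 and in the batch of replicates 1 and 2 alone. Of the 18 genes, 15 were not called, among them Adgre1 (0.24 ± 0.33), Csf1r (-0.06 ± 0.27) and Mpeg1 (0.07 ± 0.23). Adgre1, Csf1r and Mpeg1 were named after their values were seen and lie below the list median of 0.53. None of the 18 genes was at 0 in HFD_cold. The summed list held 166 to 199 CPM in NCD_RT and 188 to 469.7 CPM in HFD_cold. In bulk tissue a change in the number of cells of a type and a change in RNA per cell cannot be told apart.

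Kit, the receptor that marks mast cells and is also made by other cells, fell from 39.1, 54.1 and 48.3 CPM to 2.52, 2.82 and 3.43 CPM (log2 fold change -4.00 ± 0.49, adjusted p = 0.000284). Kit was the 1 lower gene of 10 lymphocyte, mast cell and neutrophil genes, whose median log2 fold change was 0.76. The mast cell genes Cpa3, Mcpt4 and Cma1 were tested and not called. S100a8, a neutrophil calprotectin chain, was the 1 higher gene of the list (3.03 ± 0.76), with 3.96, 0.837 and 0.583 CPM in HFD_cold. The call of S100a8 was lost without NCD_RT replicate 1, NCD_RT replicate 2 or HFD_cold replicate 1. Of the interferon genes, Ifi27l2a was the higher (0.62 ± 0.16, not called without NCD_RT replicate 2 or HFD_cold replicate 1 or 3). With each library left out, 0 or 1 of the interferon genes was lower.

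Of 21 endothelial and pericyte genes, 11 were higher and 1 lower (median 0.53), with 6 higher without NCD_RT replicate 1 and 7 without HFD_cold replicate 3. Pecam1, a junction protein of all endothelium, rose from 118, 108 and 115 CPM to 230.1, 228 and 213 CPM (log2 fold change 0.98 ± 0.11, adjusted p = 0.000174), Eng, a TGF-beta coreceptor, by 1.47 ± 0.17, Kdr, the main VEGF receptor, by 1.01 ± 0.18 and the arterial factor Sox17 by 1.32 ± 0.23. The summed list held 1855 to 2018 CPM in NCD_RT and 2375 to 2683 CPM in HFD_cold.

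Of 24 collagen genes, 11 were lower and 2 higher (median -0.86), with 7 lower without NCD_RT replicate 3 and 9 lower when scaled by library totals. The summed list did not fall and overlapped between the groups, with 3179 to 4340 CPM in NCD_RT and 3294 to 4505 CPM in HFD_cold. Both higher members were chains of basement membrane collagen IV: Col4a1 rose from 709.9, 558 and 759.5 CPM to 1823, 1409 and 1799 CPM (log2 fold change 1.31 ± 0.16, adjusted p = 0.000306) and Col4a2 by 1.36 ± 0.13. Col1a1, of fibrillar collagen I, fell from 146, 246 and 359 CPM to 36.4, 42.5 and 83.7 CPM (log2 fold change -2.21 ± 0.37, adjusted p = 0.00201), and Col20a1 was lower (-1.82 ± 0.22). Matrix remodelling genes counted 6 higher and 4 lower of 29 (10 and 2 with scaling by library totals), with the protease Adamts9 (1.26 ± 0.22) and the crosslinker Loxl1 (0.82 ± 0.16) higher and the gelatinase Mmp2 (-1.15 ± 0.21) and the proteoglycan Lum (-1.32 ± 0.24) lower.

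Fibroblast and preadipocyte genes were 3 higher and 3 lower of 14, with Ly6a (0.88 ± 0.15) and Icam1 (1.19 ± 0.20) higher and Fap (-1.07 ± 0.26) lower, the latter not called without NCD_RT replicate 3 or HFD_cold replicate 1. The lower count of this list was 0 without either of these 2 libraries, 1 without NCD_RT replicate 1 or 2, HFD_RT replicate 2, NCD_cold replicate 2 or 3 or HFD_cold replicate 2, and 1 with scaling by library totals. Schwann cell and nerve genes were 1 higher and 3 lower of 12, led by the neurotrophin receptor Ngfr (-1.86 ± 0.42). Their lower count was 1 without NCD_RT replicate 1 or 2 or HFD_cold replicate 2 or 3 and with scaling by library totals, and the higher count 0 without NCD_RT replicate 2 or 3 or HFD_cold replicate 2. Cell cycle genes were 9 higher and 1 lower of 29, with 4 higher without any one of the 3 NCD_RT libraries, 5 without HFD_cold replicate 3 and 2 within the batch of replicates 1 and 2. Ccnd1, cyclin D1, rose from 21.8, 17.9 and 25.8 CPM to 39.6, 63.2 and 67.2 CPM (1.37 ± 0.25) and the nucleotide synthesis gene Tyms by 0.93 ± 0.13. Of 30 skeletal muscle genes, 0 were higher and Myh8, a developmental myosin, was lower (-4.95 ± 1.09), although the median of the list was -1.71 (-0.35 without NCD_RT replicate 2, -3.58 without HFD_cold replicate 3), and 13 were lower in the batch of replicates 1 and 2 alone.

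Genes of secreted factors and hormone signals changed in both directions. Of 19 batokines and growth factors, 5 were higher and 1 lower, Fgf21 and Gdf15 among the higher. Bmp8b, a growth factor of activated brown fat, rose from 3.23, 1.8 and 1 CPM to 41.7, 17.9 and 40.6 CPM (log2 fold change 4.11 ± 0.44, adjusted p = 0.000142), Adm, adrenomedullin, by 1.91 ± 0.35, and Igf1 fell from 29.9, 35.3 and 37.6 CPM to 8.24, 8.89 and 15.8 CPM (log2 fold change -1.63 ± 0.22, adjusted p = 0.000497). Of 13 adipokine and white adipocyte genes, 5 were lower and 2 higher. Npr3, the clearance receptor of natriuretic peptides, rose from 244, 262 and 284 CPM to 1088, 1157 and 1347 CPM (log2 fold change 2.19 ± 0.23, adjusted p = 0.000142), with both cold (1.05 ± 0.16) and diet (1.14 ± 0.16) called.

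Lep, leptin, fell from 133, 217 and 251 CPM to 16.6, 16.3 and 42 CPM (log2 fold change -3.00 ± 0.85, adjusted p = 0.0266), a call lost without NCD_RT replicate 2 or 3 and without HFD_cold replicate 1 or 2. Adipoq, adiponectin, (-0.78 ± 0.17), Rbp4 (-1.64 ± 0.26), Retn, resistin (-1.41 ± 0.18), and Cfd, adipsin (-1.71 ± 0.32), were lower too, and Adipoq lost its call with scaling by library totals and within the batch of replicates 1 and 2. Insulin and IGF signalling counted 2 higher and 4 lower of 23 (1 or 2 lower without NCD_RT replicate 1 or 2 or HFD_cold replicate 1 or 3, and 7 higher and 2 lower with scaling by library totals), with the adaptor Irs2 higher (log2 fold change 2.12 ± 0.45, adjusted p = 0.00704) and the PI3-kinase subunit Pik3r1 lower (log2 fold change -2.00 ± 0.43, adjusted p = 0.00726). Of 19 circadian clock genes, 1 was higher and 2 lower. Bhlhe40 fell from 88.7, 142 and 134 CPM to 22.1, 43 and 35.5 CPM (log2 fold change -1.86 ± 0.28, adjusted p = 0.000956), and Nfil3 rose by 1.06 ± 0.32, whose call was lost without NCD_RT replicate 1 or 3 and without HFD_cold replicate 1 or 3.

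A ranking by fold change with a count minimum only in the higher group favours genes that are low or unseen at baseline. The coding genes with the largest rises were of this kind, which is no result of its own. Kcnh6, a voltage-gated potassium channel, at chr11:106008124-106034549 on GRCm38, had 0, 0 and 0 counts in NCD_RT and 383, 189 and 515 counts in HFD_cold, at least 86.5-fold higher against a floor of 3 counts per NCD_RT library. Pigr, the polymeric immunoglobulin receptor, had 1, 1 and 0 counts and 158, 66 and 294 counts, a ratio of 219 (95% interval 60.2 to 1809), the interval covering counting error only. Epn3, an epsin of endocytosis, had a ratio of 154 (95% interval 52.6 to 751), Wdr72 one of 134 (95% interval 45.4 to 650.1), and Wwc1, a Hippo pathway scaffold, one of 82.1 (95% interval 31.8 to 303). Olfr287, Caln1 and Sult4a1 had ratios of 189 (95% interval 51.9 to 1562), 115 (95% interval 31.6 to 956) and 78.9 (95% interval 30.6 to 291).

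These rises divided differently between the stimuli. Wwc1 went mostly with diet (5.01 ± 0.36, against 1.20 ± 0.39 for cold) and Acot5, a peroxisomal acyl-CoA thioesterase, with cold (6.42 ± 0.64, against -0.30 ± 0.62 for HFD). Mfsd2a, a lysophospholipid transporter, rose from 0.249, 1.28 and 0.514 CPM to 66.7, 79.3 and 83.5 CPM (log2 fold change 6.85 ± 1.06, adjusted p = 0.00122), with 13.1, 155 and 49.9 CPM in the cold alone. Sgk2, a serine kinase, rose from 0.498, 0.756 and 0.441 CPM to 70.5, 30.5 and 28.2 CPM (log2 fold change 6.29 ± 0.57, adjusted p = 5.98e-05).

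Hcn2, a cation channel opened by hyperpolarization and by cAMP, at chr10:79716634-79736108 on GRCm38, shared the smallest adjusted p of the higher genes with F2r. It read 1.24, 2.38 and 2.3 CPM in NCD_RT, 16.2, 20.3 and 19.6 CPM with HFD alone, 8.26, 12.5 and 14.4 CPM with cold alone and 80.1, 101 and 90.3 CPM with both (log2 fold change 5.49 ± 0.28, adjusted p = 3.27e-06). The 4 groups did not overlap, and cold (2.41 ± 0.17) and diet (3.08 ± 0.18) added up with an interaction term of -0.28 ± 0.33. F2r, the thrombin receptor, rose from 13, 12.7 and 11.5 CPM to 85.1, 82 and 95.2 CPM (log2 fold change 2.82 ± 0.14, adjusted p = 3.27e-06) and Ptprk, a receptor phosphatase, from a mean of 11 CPM to one of 46.2 CPM (log2 fold change 2.07 ± 0.14, adjusted p = 1.26e-05), both more with diet (1.94 ± 0.10 and 1.43 ± 0.09) than with cold (0.88 ± 0.10 and 0.64 ± 0.09).

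Other coding genes with large falls lay at low to moderate levels. Sorcs2, a sorting receptor of the Vps10 family, read 169, 61.8 and 101 CPM in NCD_RT and 3.51, 3.48 and 2.89 CPM in HFD_cold (log2 fold change -5.08 ± 0.44, adjusted p = 4.29e-05), with -2.65 ± 0.28 for cold and -2.42 ± 0.28 for HFD. Atp4b, a subunit of the gastric proton pump, fell from 11.4, 6.74 and 9.53 CPM to 0.135, 0.176 and 0.14 CPM (log2 fold change -5.91 ± 0.41, adjusted p = 1.26e-05), Prune2 from 219.9, 136 and 145 CPM to 6.12, 7.13 and 5.87 CPM, and Fer1l6, a ferlin, from 62.2, 32.5 and 40.5 CPM to 1.67, 1.85 and 1.38 CPM. Dmrtc1a fell by a ratio of 81.2 (95% interval 31.3 to 300.1) on its counts. Mapk8ip1, a scaffold of JNK signalling, fell with little spread, from 25.8, 21.4 and 22.3 CPM to 4.86, 4.18 and 5.24 CPM (log2 fold change -2.28 ± 0.15, adjusted p = 1.26e-05).

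Ttc25, of the dynein arms of cilia, had 35.8, 53.1 and 44.7 CPM in NCD_RT, 20.3, 16.6 and 8.95 CPM with HFD alone and 101, 42.7 and 174 CPM with cold alone, yet 1.67, 2.86 and 2.05 CPM with both (log2 fold change -4.35 ± 0.50, adjusted p = 0.000225). Its interaction term was -4.04 ± 0.65 (adjusted p = 0.13 by edgeR and 1.05e-08 by DESeq2). Dixdc1 (-4.24 ± 0.52), Bsn, a scaffold of presynaptic zones (-4.99 ± 0.73), and 1700018G05Rik (-5.43 ± 0.55) fell as well.

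**Figure D4:**
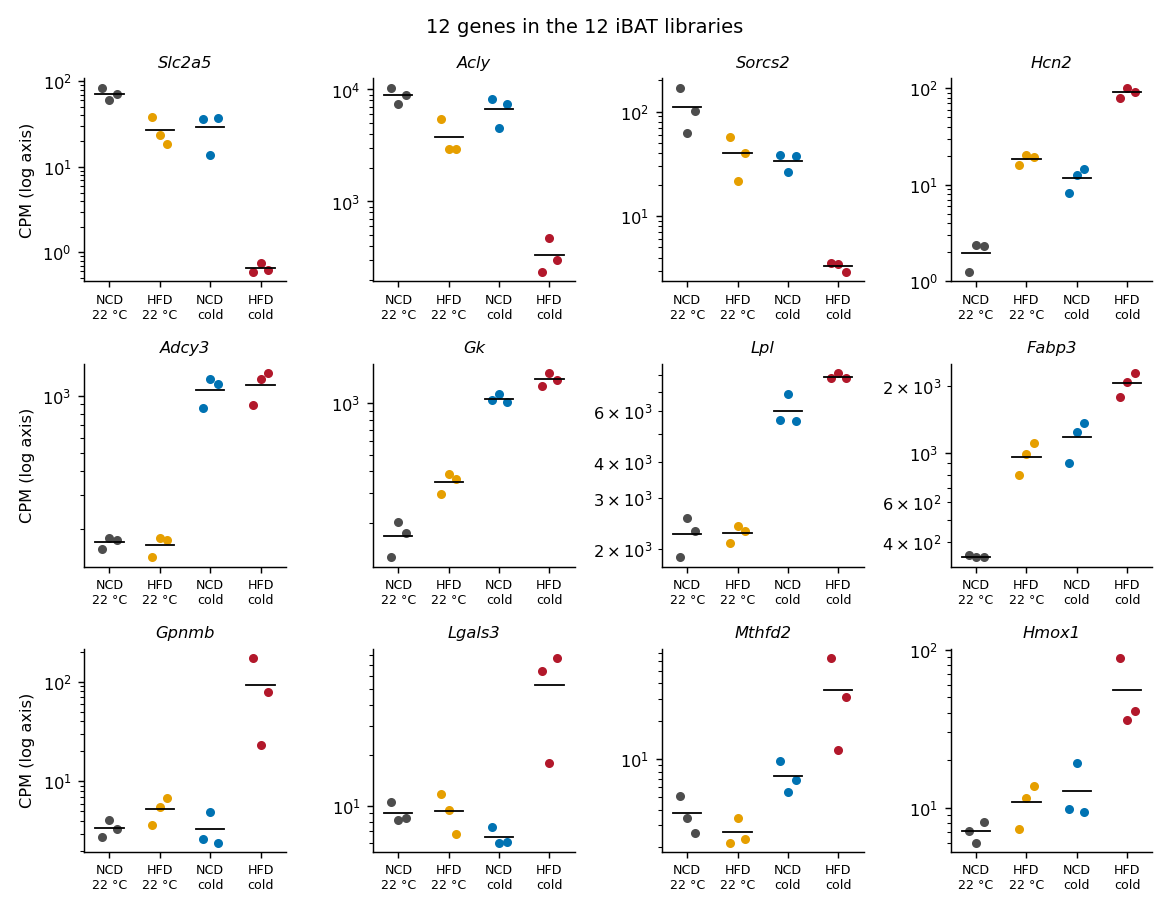
CPM on a log axis of 12 genes in the 12 libraries, 3 per group, with a bar at the group mean. Slc2a5, Acly and Sorcs2 are lowest with both stimuli, Hcn2 and Fabp3 rise with each stimulus and most with both, Adcy3, Gk and Lpl rise with cold, and Gpnmb, Lgals3, Mthfd2 and Hmox1 are highest with both stimuli, where their 3 libraries are spread apart.

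Of the 399 noncoding genes called, 180 were higher and 219 lower. Gm15551, the lncRNA gene that the study followed up, at chr3:126667329-126669044 on GRCm38, read 5.04, 4.24 and 3.38 CPM in NCD_RT and 0.405, 0.528 and 0.629 CPM in HFD_cold, 8.1-fold lower on the means (log2 fold change -2.98 ± 0.54, adjusted p = 0.00302). Its average cold effect was -2.09 ± 0.37 and its average HFD effect -0.89 ± 0.37 (adjusted p = 0.131). Lncbate10, a brown fat lncRNA, rose from 8.58, 10.2 and 11.1 CPM to 223, 158 and 145 CPM (log2 fold change 4.13 ± 0.23, adjusted p = 6.18e-06), with cold (3.02 ± 0.15) and diet (1.11 ± 0.15) both called. Ctcflos rose from 48.3, 59.5 and 54.1 CPM to 286, 246 and 182 CPM (log2 fold change 2.14 ± 0.21, adjusted p = 8.91e-05), and H19 was not called (-1.28 ± 1.24). In the list of 14 genes that the study names for iBAT, 6 were higher and 3 lower, and Camk2d was not called (0.15 ± 0.17). The study picked Gm15551 on these samples and named others as known markers or from earlier work. The values here come from the same samples and are no independent evidence.

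The noncoding genes with the largest changes, ranked in the same way with a lower count minimum, had few counts, which again follows from the ranking. QNCMUSG00001974 had 0, 0 and 0 counts in NCD_RT and 57, 17 and 71 in HFD_cold, at least 11.4-fold higher, and QNCMUSG00020610 and QNCMUSG00027989, also at 0 in each NCD_RT library, were at least 5.35-fold and 4.45-fold higher. QNCMUSG00028410 was at least 11.6-fold higher by the same floor, but its call was kept without only 2 of the 12 libraries. QNCMUSG00014400 rose (6.18 ± 1.45) with 23.4, 4.14 and 4.08 CPM in HFD_cold, a call lost without NCD_RT replicate 3. Among the falls, Gm47818 had a ratio of 159 (95% interval 28 to 6319) on its counts, QNCMUSG00025481 one of 88.9 (95% interval 15.5 to 3557), Gm34759 one of 74.7 (95% interval 12.9 to 2995) and QNCMUSG00008986 one of 58.1 (95% interval 15.7 to 486). QNCMUSG00016883 was better covered, falling from 14.7, 12.4 and 16.5 CPM to 0.225, 0.396 and 0.956 CPM (log2 fold change -4.68 ± 0.59, adjusted p = 0.000357).

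On the log2 scale the total is the sum of the average cold effect and the average HFD effect. The former sets both cold groups against both room temperature groups, the latter both HFD groups against both control diet groups. Each gene can thus be sorted by whether its averages run together or apart. Each average also takes in part of any interaction, so a gene that moved only with both stimuli has both averages in the same direction. Cold was called for 2123 genes (12.7%) and HFD for 1305 (7.8%). The cold part was the larger one in 1804 of the 3049 genes called in total and the HFD part in 1245. Called for cold, not for HFD, and for the total were 627 higher and 540 lower genes, called for HFD, not for cold, and for the total 312 higher and 292 lower genes, and 922 genes were called in total with neither part called.

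Both effects were called in the same direction for 348 genes, 163 higher and 185 lower, and in opposite directions for 75. All 348 were called in the total, whose direction is fixed by its parts. Among the higher ones were Kcnh6, Epn3, Wdr72, Olfr287, Caln1 and Drd1, the dopamine receptor D1, which rose from 0.0622, 0.232 and 0.147 CPM to 9.27, 4.09 and 3.08 CPM. Among the lower ones were Slc2a5, Atp4b, Dmrtc1a, Sorcs2, Dixdc1 and QNCMUSG00016883. The same direction does not mean a plain sum. By DESeq2 the interaction term was -4.05 for Slc2a5 and -4.22 for Atp4b, and neither term passed edgeR's test.

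The 75 opposed genes comprised 36 that were higher with cold and lower with HFD and 39 the other way round. In the total, 67 of them were not called, and for 45 the 95% interval of the total lay within 1 log2 unit of 0. Acsl5, an acyl-CoA synthetase, read 838, 716 and 852 CPM in NCD_RT, 482, 322 and 329 CPM with HFD, 1990, 1841 and 2404 CPM with cold and 632, 653 and 786 CPM with both. Its cold effect of 1.12 ± 0.12 and HFD effect of -1.34 ± 0.13 left -0.22 ± 0.17 (95% interval -0.60 to 0.17). The noncoding gene QNCMUSG00029696 read 17.7, 19.1 and 16.5 CPM in NCD_RT, 8.05, 4.91 and 5.14 CPM with HFD, 62.8, 64 and 65.1 CPM with cold and 21.7, 21.7 and 21.4 CPM with both (0.28 ± 0.16, 95% interval -0.06 to 0.63).

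Esrp2, an epithelial splicing factor (1.56 ± 0.22 for cold, -1.28 ± 0.22 for HFD), 4631405J19Rik (1.85 ± 0.26 and -2.00 ± 0.26), 2700046G09Rik and Mmd2 (1.61 ± 0.17 and -1.06 ± 0.17) were opposed in the same sense, and none was called in the total. In the last pair these are averages over both levels of the other stimulus, and the lowest group mean was that of HFD_RT. Mmd2 read 10.3, 7.09 and 7.05 CPM in NCD_RT, 1.48, 1.62 and 1.67 CPM with HFD, 10.7, 11.6 and 8.38 CPM with cold and 15.3, 8.23 and 12.3 CPM with both, with an interaction term of 2.57 ± 0.34 (adjusted p = 0.0646 by edgeR and 8.97e-08 by DESeq2). 2700046G09Rik was at 0 in each HFD_RT library and read 2.3, 1.69 and 2.45 CPM in NCD_RT, 0, 2.82 and 1.7 CPM with cold and 1.35, 2.07 and 1.4 CPM with both (interaction adjusted p = 0.525 by edgeR and 0.00156 by DESeq2). With scaling by library totals QNCMUSG00029696 and Mmd2 were called higher. In the other sense, Gfra4, a receptor of the GDNF family, had -1.75 ± 0.20 for cold and 1.07 ± 0.20 for HFD, and Car12, a membrane carbonic anhydrase, -2.69 ± 0.63 and 3.36 ± 0.62. The total of Gfra4 was called lower in the batch of replicates 1 and 2 alone (log2 fold change -1.04, adjusted p = 0.03 by edgeR). It kept its side of the thresholds in 11 of the 12 fits with a library left out. Car12 read 0.871, 0.116 and 0.539 CPM in NCD_RT, 8.18, 5.75 and 2.82 CPM with HFD, 0.172, 0 and 0.071 CPM with cold and 0.315, 0.352 and 1.65 CPM with both. Nkain1 (-0.23 ± 0.27), Prr32 (-0.07 ± 0.54), QNCMUSG00039913 (-0.22 ± 0.41) and QNCMUSG00029095 (0.55 ± 0.46) were opposed in this sense too, and none of the 6 was called in the total.

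**Figure D5:**
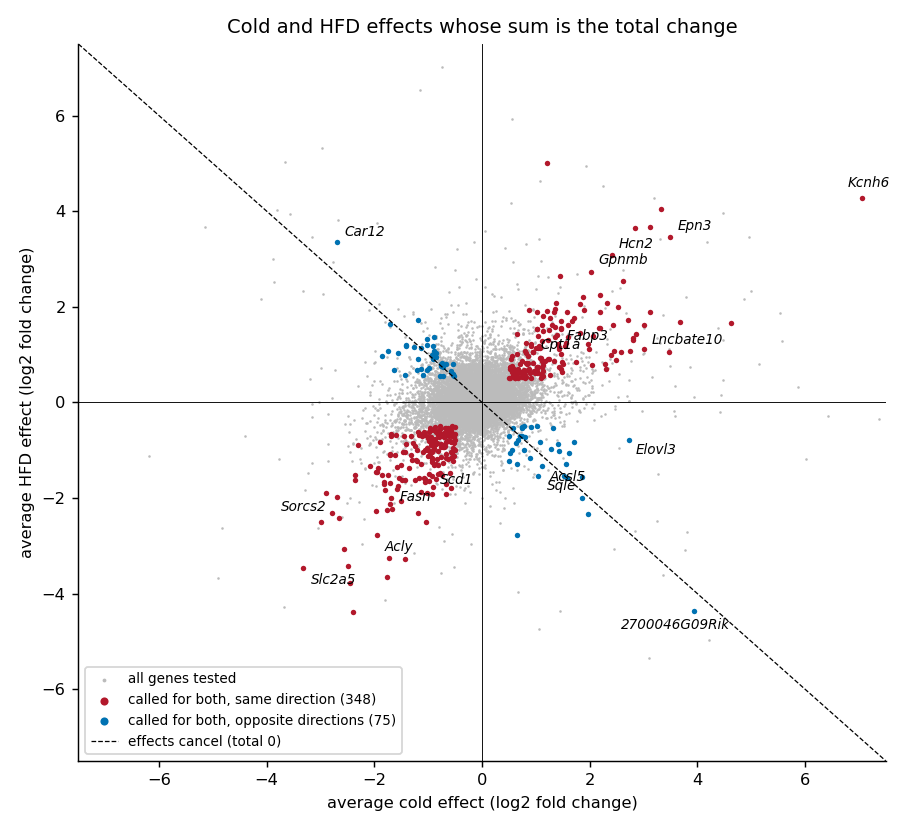
Average cold effect (x) against average HFD effect (y), both as log2 fold change, for all genes tested (grey, 3 genes beyond 7.5 not drawn), with 348 genes called for both in the same direction (red) and 75 in opposite directions (blue). On the dashed line the effects cancel. Each average takes in part of any interaction, so the place of a gene does not show a plain sum. Lipogenic genes such as Acly and Fasn lie at the lower left, Hcn2, Gpnmb and Kcnh6 at the upper right, and Acsl5, Sqle and Car12 near the dashed line.

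A departure from the plain sum was tested as the interaction of diet and temperature. By edgeR's quasi-likelihood test 0 genes passed (0% of the genes tested, smallest adjusted p = 0.0566), with 1091 at an unadjusted p under 0.05, while the Wald test of DESeq2 passed 64. Without HFD_cold replicate 2 edgeR passed 22, and without NCD_cold replicate 2 it passed 3. Among the 64 were Acly, Fasn, Acaca, Slc2a5, Atp4b, Ttc25 and Ucp1 with negative terms and Gpnmb, Lgals3, Mthfd2, Psat1, Srxn1, Mmd2 and Retn with positive ones. The median width of the 95% interval of the edgeR term was 1.35 log2 units over all genes, with 3 libraries per group.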

How the data were processed

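Total RNA of iBAT was sequenced in 12 libraries, 3 per group. The authors filtered reads with cutadapt and ran salmon on the transcripts of GENCODE M22 and RNAcentral, and the deposited table holds estimated counts per gene as whole numbers. Salmon divides reads shared by near-identical copies, so families such as Acot, Scd, Mt or Olfr genes are uncertain, and the strand setting is not given in the sources used here, so overlapping and antisense genes cannot be told apart. Positions are from GENCODE M21 on GRCm38.

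Counts were filtered (filterByExpr, minimum count 10), scaled by TMM and fitted as 4 group means over 12 libraries in edgeR 4.0.16 (R 4.3.3, limma 3.58.1) with glmQLFTest, and p-values were adjusted by Benjamini-Hochberg over all genes tested. DESeq2 1.42.0, which the study used, and apeglm 1.24.0 were alternatives. The interaction needed no minimum fold. The labels give 2 batches (replicates 1 and 2, replicate 3) but do not say how the libraries of a group were sampled, so p-values measure the spread between these libraries. Ratios on low counts have exact binomial 95% intervals for counting error only.

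The genes and lists were chosen with earlier results of these data known. Named by rule were the 12 coding and 5 noncoding genes with the largest rise and fall (means of at least 50 and 10 normalized counts, no overlap), the 5 with the smallest adjusted p each way, up to 4 called members of each list, 6 genes of each combination of directions, and those the study names. Fasn, Scd1, Srebf1, Mlxipl, Acsl1, Hk2, Slc2a1, Slc2a4, Hmgcs1, the 6 opposed cholesterol genes, Fgf21, Psat1, Xbp1, Ddit3, Atf4, Adgre1, Csf1r and Mpeg1 were named after their values were seen. The tests were tried on simulated counts with known changes. Some genes are not reported here.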

Additional observations from a re-analysis of the deposited data

How the results depend on the processing

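The 3049 genes called in total were 3271 with DESeq2 (2942 shared), 3543 with apeglm, 3033 with DESeq2 size factors in edgeR, 3005 without a count filter, 3024 with a mean of at least 10 counts, 3241 with batch as a term, 2416 in the batch of replicates 1 and 2, 2767 from the 6 libraries alone and 3699 without a minimum fold. Testing against the fold threshold (glmTreat) gave 1190 in total, 196 noncoding, 262 for HFD and 567 for cold. Without a minimum fold HFD had 2262 and cold 3539, and HFD had 539 in the batch of replicates 1 and 2. Only 42 of the 399 noncoding genes had the type lncRNA. Scaling by library totals, added after the data were seen, gave 4649 in total (2442 of the 3049 kept, 0 changed sign), 2959 for HFD and 1 for the interaction. The interaction had 27 genes without a count filter and 64 with DESeq2. With each library left out the ranges were 2189 to 3186 (total), 269 to 438 (noncoding), 938 to 1331 (HFD), 1837 to 2123 (cold) and 0 to 22 (interaction). A replicate block gave 3206 in total, 427 noncoding, 1351 for HFD, 2192 for cold and 1 for the interaction; replicates with the same number share only a number (correlations of their deviations 0.178, -0.124 and -0.007), so nothing is read from the block. Of 165 named genes over 3789 gene and setting pairs, 3625 kept their side of the thresholds, 159 lost and 5 gained a call, and 0 reversed, and 127 of the 148 called genes were called with each library left out. With 3 libraries per group and 17952925 counts in the shallowest of the 6, genes of a few counts have wide intervals.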
